A study of Mus musculus with 15 samples.

Results

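The genes described here encode the contractile apparatus and the actin cytoskeleton: actins, the myosin motor and its regulators, proteins of thin filaments and stress fibres, actin crosslinkers and adhesion proteins, an intermediate filament, and target genes of serum response factor (SRF) together with Srf itself. The 33 symbols were given as a list, and each gene was represented by the probe set with the highest mean over 15 arrays among probe sets annotated to exactly 1 of these symbols. All 33 had at least 1 such probe set, 75 in all, among 18193 annotated symbols on the array. All 33 also passed the filter on dim probe sets, which asked for 3 or more arrays with an intensity over the 40th percentile of the array in question and left 13382 genes in the test. Of the 33, 30 were above that percentile on all 15 arrays, Myh11 on 13, Des on 12 and Actc1 on 6.

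The samples were RNA of mouse embryonic fibroblasts (MEFs), primary and male, on Affymetrix expression arrays, with 3 arrays in each of 5 groups. In 4 groups Hdac1 was flanked by loxP sites on both alleles (fl/fl), and the cells carried a retrovirus for Cre-ERT2, which cuts loxP sites once tamoxifen is bound, and a retrovirus for a small hairpin micro-RNA. Cells with the scrambled micro-RNA in ethanol are called control, and the same cells with 200 nM tamoxifen, which deletes Hdac1, are called KO. Cells with the micro-RNA against Hdac2 in ethanol are called Kd, and those with tamoxifen, which lack Hdac1 and have lowered Hdac2, are called KO/Kd. The fifth group was of Hdac1 +/+ cells with 200 nM tamoxifen, whose viruses are not given in the sources used here. Control received Cre-ERT2 but no tamoxifen, so deletion and drug cannot be told apart against control, and +/+ cells with tamoxifen differ from the fl/fl cells in genotype and possibly in virus. HDAC1 and HDAC2 are histone deacetylases, which remove acetyl groups from histone tails within corepressor complexes.

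SRF is a transcription factor that binds CArG boxes, short runs of A and T between a pair of C and a pair of G. With its actin-sensing cofactors of the MRTF family it drives genes of the actin cytoskeleton, because free actin monomers hold MRTF out of the nucleus. With ternary complex factors such as Elk1 it drives immediate early genes. In fibroblasts these contractile genes are known for building stress fibres, and alpha-smooth muscle actin marks the myofibroblast state; YAP and TEAD factors share several targets with SRF.

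The arrays matched their labels. Hdac1 fell from an intensity of 3557 ± 101 (SD, n = 3) in control to 161 ± 19.8 in KO and 156 ± 48.6 in KO/Kd, and Hdac2 from 7051 ± 449 in control to 958 ± 62.1 in Kd and 1025 ± 9.88 in KO/Kd. Array medians lay between 24.1 and 28.6 in the other 4 groups and between 29.1 and 30.7 in KO/Kd, so a higher overall intensity moved with that group, and results are also given below with the arrays rescaled. Fibroblast genes were bright in every group, with mean intensities of Col1a1, a fibrillar collagen chain, from 22328 to 30156, while Myod1, the master regulator of skeletal muscle, stayed below the 40th percentile on all 15 arrays. Of the 9 skeletal muscle markers listed, 3 passed the filter. Of these, 2 were higher in KO/Kd than in control at a limma adjusted p under 0.05, where 46.2% of all genes were. All 9 together summed to only 128 to 134 in control and 172 to 186 in KO/Kd. The 40th percentile of a single array lay between 18.8 and 22.5.

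Contractile genes were mostly higher in KO/Kd than in control, with a few that were clearly lower. In KO/Kd 24 of the 33 genes rose and 4 fell at a limma adjusted p under 0.05, where 46.2% of all 13382 genes tested rose and 19.3% fell. The median log2 change of the 33 was 0.42, beside 0.16 for all genes tested. In KO 18 rose and 0 fell, where 19.5% of all genes rose and 4.64% fell, and the median was 0.20 beside 0.08. With arrayWeights 11 rose in KO, where 8.02% of all genes rose. Under quantile normalization or centring on array medians 14 rose and 1 fell, where 13.9% or 15% of all genes rose and 14.4% or 10.8% fell. The median of all genes was then -0.01 or 0.00. In Kd 8 rose and 0 fell, where 7.5% of all genes rose and 3.02% fell, and the median was 0.10 beside 0.04. These comparisons share the control arrays. In KO/Kd, Synpo2 (2.26), Lmod1 (1.18), Myh11 (1.15) and Mylk (1.13) had the highest log2 changes of the 33, and Acta1 (-2.92), Tagln2 (-0.64), Zyx (-0.62) and Smtn (-0.32) were the 4 that fell. Rescaling mattered for the weaker changes: when arrays were quantile-normalized or centred on their medians, the median change of all genes in KO/Kd moved from 0.16 to -0.02 or -0.01. The split of the 33 became 18 higher and 8 lower or 20 higher and 8 lower. Of all genes, 32.2% or 35% were then higher and 33.4% or 31.2% lower. In Kd the split became 8 and 2 or 8 and 1, where 8.28% or 9.39% of all genes were higher and 7.28% or 4.8% lower. The count of higher genes in Kd dropped to 3 without Kd replicate 1, to 4 without Kd replicate 2 or control replicate 1, and to 5 without control replicate 2. The share of all genes that rose in Kd also dropped, to 5.62% without control replicate 1 and 5.86% without control replicate 2.

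**Figure D1:**
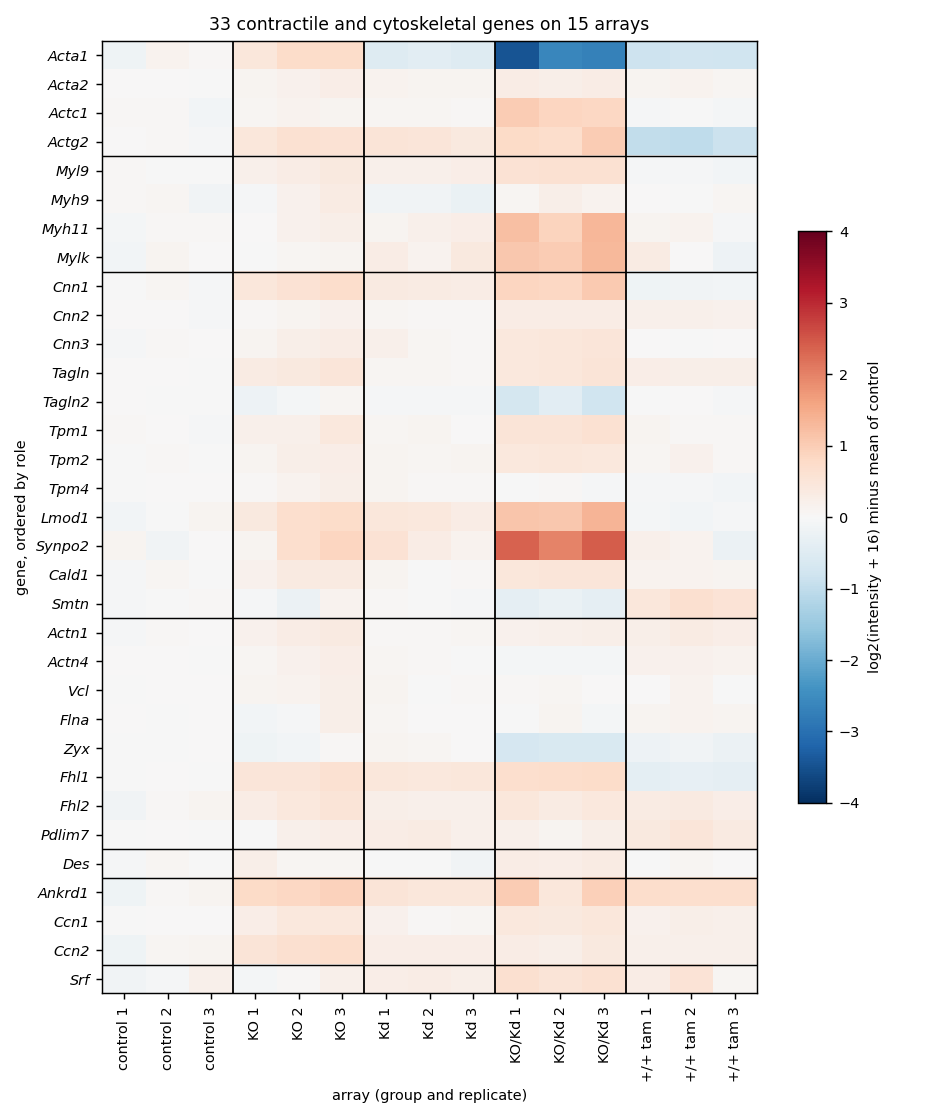
Each row is 1 of the 33 genes, ordered by role, and each column 1 of the 15 arrays; colour gives log2(intensity + 16) minus the mean of the 3 control arrays. Acta1 is dark blue on the 3 KO/Kd arrays, and Synpo2, Lmod1, Myh11 and Mylk are red there.

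**Figure D2:**
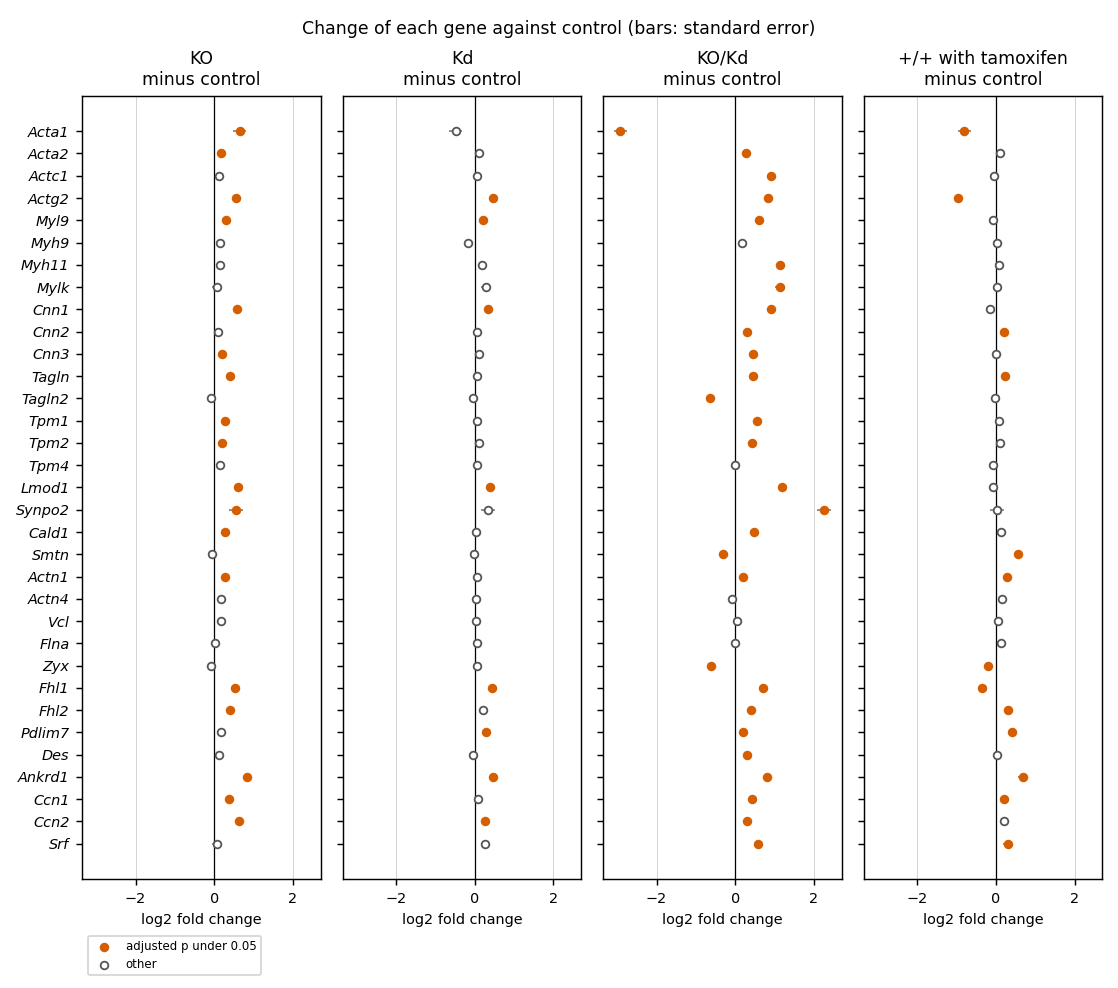
Log2 fold changes of each gene against the same 3 control arrays for KO, Kd, KO/Kd and +/+ cells with tamoxifen, with bars for 1 standard error and filled points for a limma adjusted p under 0.05. Most points lie right of 0 in KO/Kd, and Acta1 lies at -2.92.

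The 4 muscle actins did not move together: in KO/Kd 3 rose and 1, Acta1, fell, where 46.2% and 19.3% of all genes did. Acta1, skeletal muscle alpha-actin, had intensities of 1814, 2235 and 2103 in control, 2806, 3412 and 3432 in KO, 1420, 1513 and 1430 in Kd, 172, 323 and 301 in KO/Kd, and 1147, 1191 and 1172 in +/+ cells with tamoxifen. KO was above every other array and KO/Kd below every other array, with no overlap between any 2 groups. The log2 change was 0.64 (SE 0.16, adjusted p = 0.008) in KO, -0.49 (adjusted p = 0.0668) in Kd and -2.92 (adjusted p = 1.33e-10) in KO/Kd, so KO/Kd was 7.56-fold below control on the log2(intensity + 16) scale. Acta1 ranked 24th from the lowest of 13382 genes in that comparison. The KO call was lost when limma's arrayWeights down-weighted variable arrays (0.57, adjusted p = 0.162), and the Kd change passed the threshold under 6 of 23 alternatives, among them the omission of KO/Kd replicate 1 or 2 (both -0.49), which share the fit's estimate of spread. Actc1, cardiac alpha-actin, went the other way, from 18.7, 18.9 and 15.3 in control to 52.4, 44.5 and 43.1 in KO/Kd. Its arrays in control and in +/+ cells were all below the 40th percentile of their array, KO (19.6, 21.2 and 20.3) lay just above control and Kd (19.5, 19.8 and 18.5) overlapped it, and KO/Kd was above all others. Its log2 change in KO/Kd was 0.90 (SE 0.07, adjusted p = 7.01e-09), which is understated at this level.

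Actg2, the gamma-actin of enteric smooth muscle, read 5489, 5685 and 5276 in control, 7494, 8408 and 8239 in KO, 7777, 7626 and 7224 in Kd, 9340, 8972 and 11080 in KO/Kd, and 2743, 2702 and 2991 in +/+ cells with tamoxifen. All KO, Kd and KO/Kd arrays were above all control arrays, and all +/+ arrays were below them. The log2 change against control was 0.55 (adjusted p = 0.000157) in KO, 0.46 (adjusted p = 0.00129) in Kd, 0.83 (adjusted p = 1.43e-07) in KO/Kd and -0.96 (adjusted p = 2.78e-07) in +/+ cells. Acta2, alpha-smooth muscle actin, was bright everywhere, at 33201, 32824 and 31967 in control and 39987, 38769 and 40466 in KO/Kd. Its rise in KO/Kd was 0.28 (adjusted p = 0.00045) and was lost under quantile normalization (0.08, adjusted p = 0.102), while the KO change of 0.18 (adjusted p = 0.0365) was lost under 12 of 23 alternatives, including the omission of any control array, of KO replicate 2 or 3 or of Kd replicate 2 (0.14 to 0.19). Coding sequences of these actins are closely similar, and cross-hybridization between their probe sets was not tested.

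The windows from 250 bases before to 50 bases after the annotated start of Acta1 (chr8:123894726-123895025, minus strand) and Actc1 (chr2:114052826-114053125, minus strand) each hold a CArG box, and are shown because these genes moved in opposite directions in KO/Kd. Sequences are from RefSeq on GRCm38.p6, 5′ to 3′ on the gene's strand. Capitals mark a CArG box of the exact form, CC, 6 letters of A or T, and GG. Forms with a mismatch were not searched and stay in small letters.
Acta1: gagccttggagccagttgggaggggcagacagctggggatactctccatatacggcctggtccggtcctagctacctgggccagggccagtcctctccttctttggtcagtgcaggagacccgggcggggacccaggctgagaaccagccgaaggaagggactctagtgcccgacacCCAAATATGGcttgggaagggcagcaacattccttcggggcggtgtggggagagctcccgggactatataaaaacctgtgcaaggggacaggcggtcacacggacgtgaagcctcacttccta
Actc1: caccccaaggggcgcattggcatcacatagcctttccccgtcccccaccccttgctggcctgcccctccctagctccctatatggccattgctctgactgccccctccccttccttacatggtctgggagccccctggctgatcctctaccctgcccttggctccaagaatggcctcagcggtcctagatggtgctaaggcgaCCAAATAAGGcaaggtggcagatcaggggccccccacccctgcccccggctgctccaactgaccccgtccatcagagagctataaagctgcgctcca
The box begins 73 bases before the start in Acta1 and 47 bases before it in Actc1.

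**Figure D3:**
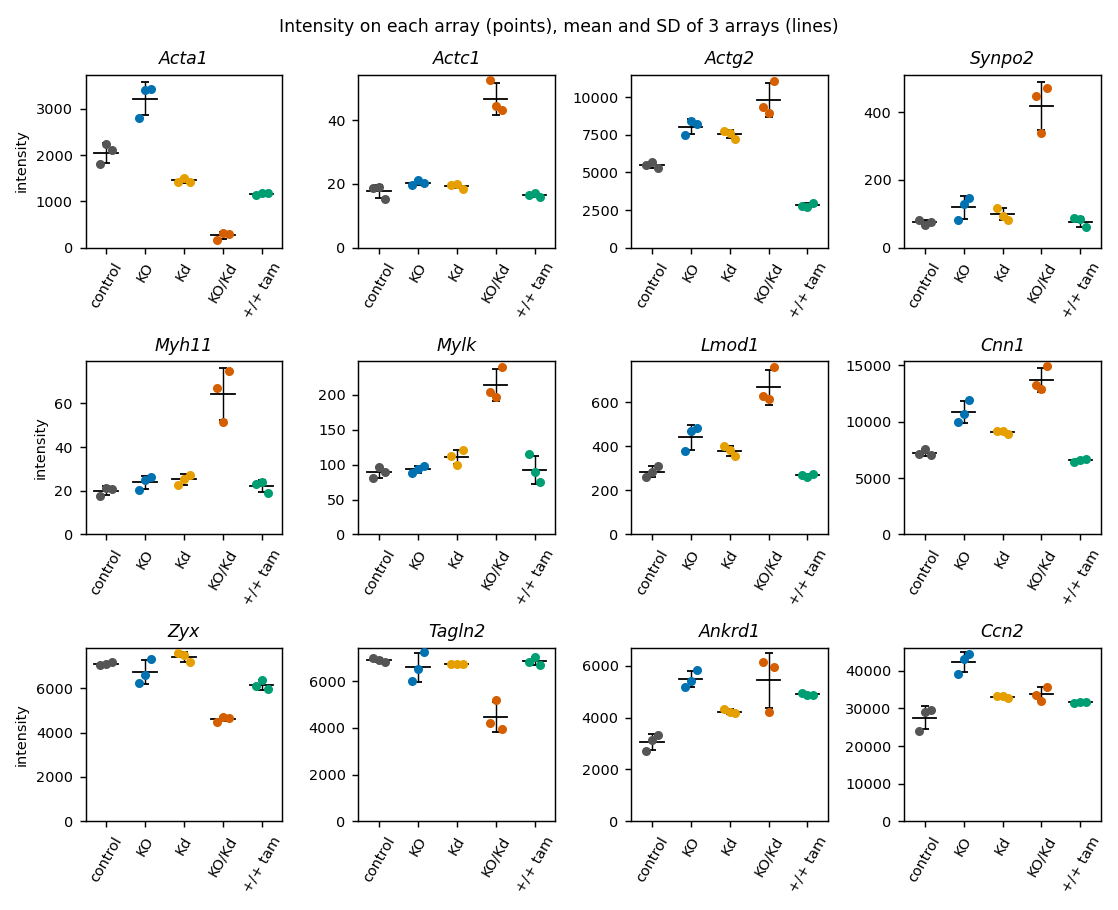
Intensity of 12 of the 33 genes on each array (points), with the mean and SD of the 3 arrays of a group (lines); every axis is linear and starts at 0. Acta1 is high in KO and low in KO/Kd, while Actc1, Myh11, Mylk and Synpo2 stand out in KO/Kd.

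Of the 4 genes of the myosin motor and its regulators, 3 rose in KO/Kd, where 46.2% of all genes rose. Myh11, the smooth muscle myosin heavy chain, read 17.8, 21.4 and 21 in control, 20.5, 24.8 and 26.3 in KO, 22.7, 25.6 and 27.4 in Kd, 66.9, 51.4 and 74.8 in KO/Kd, and 23.2, 24 and 19.2 in +/+ cells. The 12 arrays outside KO/Kd lay between 17.8 and 27.4, and the 3 KO/Kd arrays were above them all. The log2 change in KO/Kd was 1.15 (SE 0.10, adjusted p = 3.23e-08). Mylk, the kinase that phosphorylates myosin light chain, read 81.2, 96.1 and 88.8 in control and 205, 197 and 239 in KO/Kd. The KO arrays (88.1, 94.1 and 97.8) overlapped control, the Kd arrays (112, 100 and 121) lay just above control, and KO/Kd was 2.19-fold higher than control (log2 change 1.13, SE 0.11, adjusted p = 1.73e-07). A dimmer Mylk probe set gave 0.36 in KO/Kd, from 42.5 ± 6.46 (SD, n = 3) in control to 59.5 ± 13.4, and 0.30 for the interaction. Myl9, the regulatory light chain that Mylk phosphorylates, rose in KO (0.30, adjusted p = 0.00182), Kd (0.22, adjusted p = 0.0283) and KO/Kd (0.60, adjusted p = 1.64e-07). Its control arrays read 17899, 17252 and 17092 and its KO/Kd arrays 26223, 26661 and 26490, and the Kd call was lost when control replicate 2 or 3 or any 1 Kd array was left out (0.20 to 0.23). Myh9, the non-muscle myosin IIA heavy chain, read 17074 to 19666 in control and 19900 to 21906 in KO/Kd (0.16, adjusted p = 0.124), and in KO its 0.15 (adjusted p = 0.244) passed without KO replicate 1 (0.25, adjusted p = 0.0305).

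The Myl9 window (chr2:156775214-156775513, plus strand) is shown in the same way, with its CArG box in capitals beginning 161 bases before the start.
Myl9: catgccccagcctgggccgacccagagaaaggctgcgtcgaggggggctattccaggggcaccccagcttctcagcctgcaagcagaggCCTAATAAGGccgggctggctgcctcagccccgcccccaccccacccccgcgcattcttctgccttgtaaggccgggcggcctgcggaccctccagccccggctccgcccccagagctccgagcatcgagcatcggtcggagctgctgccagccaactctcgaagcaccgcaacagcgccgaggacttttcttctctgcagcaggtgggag

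Of the 12 thin filament and stress fibre genes, 9 rose and 2 fell in KO/Kd, 8 rose in KO and 2 rose in Kd, beside 46.2% and 19.3%, 19.5% and 7.5% of all genes. Synpo2, an actin-binding protein of smooth muscle and the Z-disc also called myopodin, read 81.8, 66.5 and 74.5 in control, 81.6, 129 and 147 in KO, 118, 94.3 and 82.8 in Kd, 447, 338 and 471 in KO/Kd, and 87.5, 83.3 and 59.9 in +/+ cells. KO/Kd was above every other array, and the lowest KO array lay within the control range. The log2 change was 2.26 (SE 0.18, adjusted p = 9.33e-09) in KO/Kd, a 4.78-fold rise that ranked 312th from the highest of all genes tested. In KO it was 0.55 (adjusted p = 0.032) and was lost under 7 of 23 alternatives, among them the omission of control replicate 2 or 3 or KO replicate 2 or 3 (0.40 to 0.56). In Kd it was 0.33 (adjusted p = 0.284).

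Lmod1, leiomodin, an actin nucleator of smooth muscle, read 262, 284 and 312 in control, 378, 468 and 482 in KO, 400, 386 and 355 in Kd, 631, 615 and 762 in KO/Kd, and 271, 263 and 275 in +/+ cells. Control and +/+ cells overlapped, KO and Kd overlapped each other above them, and KO/Kd was above all. The log2 change was 0.60 (adjusted p = 0.000394) in KO, 0.39 (adjusted p = 0.0165) in Kd and 1.18 (SE 0.10, adjusted p = 2.22e-08) in KO/Kd, and the Kd call was lost without control replicate 1 or 2 or Kd replicate 1 or 2 (0.34 to 0.39). Cnn1, calponin, which inhibits myosin ATPase on actin, read 7123, 7609 and 7032 in control, 9963, 10718 and 11906 in KO, 9208, 9160 and 8926 in Kd, and 13283, 12875 and 14936 in KO/Kd. These 4 groups did not overlap, and the log2 changes were 0.58 (adjusted p = 4.71e-05), 0.33 (adjusted p = 0.00911) and 0.91 (adjusted p = 1.67e-08). Its relatives changed less in KO/Kd, Cnn2 by 0.30 (adjusted p = 0.000211) and Cnn3 by 0.45 (adjusted p = 1.15e-05).

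Tagln, transgelin or SM22-alpha, an actin-bundling marker of smooth muscle, read 25880, 25683 and 25470 in control, 32350, 33367 and 35806 in KO, 26953, 26848 and 26465 in Kd, and 34662, 34781 and 36756 in KO/Kd. KO and KO/Kd overlapped and lay well above control and Kd. The log2 change was 0.40 (adjusted p = 0.000156) in KO and 0.46 (adjusted p = 2.88e-06) in KO/Kd, and 0.06 (adjusted p = 0.624) in Kd. Its relative Tagln2 moved the other way: 7016, 6901 and 6847 in control, 6022, 6528 and 7243 in KO, 6732, 6719 and 6740 in Kd, 4201, 5187 and 3972 in KO/Kd, and 6818, 7053 and 6716 in +/+ cells. KO/Kd was below all other arrays, with a log2 change of -0.64 (SE 0.09, adjusted p = 7.33e-06).

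The tropomyosins, which lie along the actin filament and regulate access of myosin, were split. Tpm1 rose by 0.54 (adjusted p = 2.88e-06) and Tpm2 by 0.43 (adjusted p = 1.17e-05) in KO/Kd, while Tpm4 read 25561 to 26325 in control and 25337 to 26838 in KO/Kd (-0.00, adjusted p = 0.988) and was called lower after rescaling of the arrays. In KO the changes were 0.27 (adjusted p = 0.00854) for Tpm1, 0.20 (adjusted p = 0.0288) for Tpm2 and 0.14 (adjusted p = 0.115) for Tpm4, which passed without KO replicate 1 (0.18, adjusted p = 0.0272). Cald1, caldesmon, which binds actin and tropomyosin, rose in KO (0.29, adjusted p = 0.00556) and KO/Kd (0.49, adjusted p = 7.97e-06). Smtn, smoothelin, a marker of contractile smooth muscle, read 728, 746 and 766 in control, 582, 624 and 580 in KO/Kd, and 1035, 1179 and 1102 in +/+ cells. Its KO/Kd arrays were below control (-0.32, adjusted p = 0.00306) and its +/+ arrays were above all the fl/fl arrays (0.55 against control, adjusted p = 0.000134). The KO calls of Cnn3 (0.21, adjusted p = 0.0281) and Tpm2 were lost under 8 and 7 of 23 alternatives, among them the omission of control replicate 1 or 3 or KO replicate 2 or 3 (0.17 to 0.21 and 0.16 to 0.19), and that of Cald1 under arrayWeights (0.24, adjusted p = 0.111).

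Of the 8 crosslinkers and adhesion proteins, 4 rose and 1 fell in KO/Kd, a share near that of all genes (46.2% and 19.3%). Zyx, zyxin, a focal adhesion protein that moves to strained stress fibres, read 7053, 7076 and 7166 in control, 6252, 6616 and 7294 in KO, 7607, 7478 and 7173 in Kd, 4495, 4692 and 4664 in KO/Kd, and 6104, 6387 and 5968 in +/+ cells. KO/Kd was below all other arrays, and KO spanned the control range. The log2 change in KO/Kd was -0.62 (SE 0.07, adjusted p = 3.4e-07). Fhl1, a LIM protein of muscle and stress fibres, read 9689, 10032 and 9741 in control, 13805, 13883 and 14946 in KO, 13397, 13249 and 13430 in Kd, 15766, 15849 and 16454 in KO/Kd, and 7567, 7812 and 7712 in +/+ cells. The 5 groups did not overlap, with +/+ cells lowest, then control, Kd, KO and KO/Kd, and the log2 changes against control were 0.53 (adjusted p = 8.59e-06) in KO, 0.44 (adjusted p = 6.87e-05) in Kd, 0.71 (adjusted p = 1.39e-08) in KO/Kd and -0.35 (adjusted p = 0.000255) in +/+ cells. Fhl2, a LIM cofactor and SRF target, rose in KO (0.40, adjusted p = 0.00108) and KO/Kd (0.41, adjusted p = 0.000172).

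Actn1 and Actn4, the non-muscle alpha-actinins that crosslink actin, read 12884 to 13769 and 9957 to 10220 in control. In KO/Kd, Actn1 read 15151 to 15677 (0.21, adjusted p = 0.0091) and Actn4 9480 to 9586 (-0.08, adjusted p = 0.275). The Actn1 call in KO/Kd was lost under both rescalings and with the mean of probe sets, and quantile normalization and the mean turned its sign. Actn4 was called lower after rescaling. Vcl, vinculin, which links adhesions to actin, changed by 0.05 (adjusted p = 0.543), and Flna, filamin A, which crosslinks actin into networks, by 0.00 (adjusted p = 0.98); both were called lower in KO/Kd after rescaling, Vcl at -0.16 or -0.13 and Flna at -0.21 or -0.17. Pdlim7, a PDZ and LIM protein of stress fibres also called enigma, had 0.28 in Kd (adjusted p = 0.0257) and 0.19 in KO/Kd (adjusted p = 0.039), and both calls were lost when any 1 control array was left out. The Kd call was also lost without Kd replicate 1 or 2 (0.25 to 0.29 over these omissions), and the KO/Kd call without KO/Kd replicate 1 or 3 (0.17 to 0.20). In KO, Actn4 (0.17), Vcl (0.17) and Pdlim7 (0.16) missed the threshold and passed it without KO replicate 1 (0.22, 0.20 and 0.24). Des, desmin, the intermediate filament of muscle, was dim, at 19, 22.4 and 20 in control and 29.2, 28.2 and 29.6 in KO/Kd. These groups did not overlap (0.30, adjusted p = 0.000689), but the call was lost under both rescalings.

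The 3 secreted and nuclear target genes rose in both KO and KO/Kd, and 2 of them in Kd, where 19.5%, 46.2% and 7.5% of all genes rose. Ankrd1, a nuclear ankyrin-repeat cofactor and YAP target, read 2722, 3146 and 3314 in control, 5190, 5427 and 5825 in KO, 4345, 4197 and 4158 in Kd, 6140, 4219 and 5930 in KO/Kd, and 4949, 4878 and 4855 in +/+ cells. Control was below all other groups, and KO/Kd spanned the range from Kd to above KO. The log2 changes were 0.84 (adjusted p = 6.8e-05) in KO, 0.47 (adjusted p = 0.0124) in Kd, 0.81 (adjusted p = 8.96e-06) in KO/Kd and 0.68 (adjusted p = 0.000314) in +/+ cells, and the Kd call was lost without control replicate 1 or Kd replicate 1 (0.39 and 0.45). Ccn2, connective tissue growth factor, a secreted matricellular protein, read 24047, 28969 and 29481 in control, 39214, 43105 and 44342 in KO, 33168, 33195 and 32865 in Kd, 33632, 32068 and 35635 in KO/Kd, and 31347, 31573 and 31807 in +/+ cells. KO was above all other arrays, and control was below them. The log2 change was 0.62 (adjusted p = 3.75e-05) in KO, 0.27 (adjusted p = 0.0358) in Kd and 0.30 (adjusted p = 0.00304) in KO/Kd, and KO/Kd was below KO by a log2 difference of -0.32 (adjusted p = 0.00224). The KO/Kd call of Ccn2 against control was lost under both rescalings, and its Kd call when control replicate 1 or any 1 Kd array was left out (0.18 to 0.28). Ccn1, also called Cyr61, a related matricellular protein, rose by 0.37 (adjusted p = 0.000669) in KO and 0.42 (adjusted p = 2.71e-05) in KO/Kd.

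Srf, the transcription factor itself, read 823, 886 and 1045 in control, 868, 940 and 1064 in KO, 1107, 1114 and 1084 in Kd, 1423, 1306 and 1414 in KO/Kd, and 1116, 1328 and 972 in +/+ cells. KO overlapped control, Kd lay just above it, and KO/Kd was above control, KO and Kd but overlapped +/+ cells. The log2 change in KO/Kd was 0.59 (SE 0.11, adjusted p = 0.000158). Its second probe set gave the opposite direction, with a mean of 116 ± 25.6 (SD, n = 3) in control and 82.3 ± 10.6 in KO/Kd (-0.41), so every call of Srf given here is that of its brighter probe set. Its window (chr17:46556113-46556412, minus strand) holds 2 CArG boxes of the exact form, in capitals, that begin 82 and 62 bases before the start. The window is shown because Srf is known to bind its own promoter.
Srf: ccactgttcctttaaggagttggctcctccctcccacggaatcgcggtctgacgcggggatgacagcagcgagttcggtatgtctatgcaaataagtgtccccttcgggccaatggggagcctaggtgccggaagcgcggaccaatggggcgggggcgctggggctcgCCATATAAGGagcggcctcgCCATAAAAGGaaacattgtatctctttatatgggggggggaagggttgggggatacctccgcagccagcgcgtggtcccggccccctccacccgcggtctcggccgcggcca

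Promoter windows were found for 29 of the 33 genes, 32 windows in all, and not for Actg2, Tagln, Myh11 and Ccn2. A CArG box was counted only in its exact form, CC, 6 letters of A or T, and GG. Forms with a mismatch, such as ccctatatgg in the window of Acta2, were not counted. Exact boxes were found for 8 genes, Acta1, Actc1, Myl9, Cnn2, Vcl, Fhl1, Fhl2 and Srf. They stood on either strand in 9 of the 32 windows (28.1%) and in 535 of 32841 windows of all genes (1.63%). The list names SRF-driven genes, so this share describes the choice of genes and was not tested. The motif CATTCC or its reverse complement GGAATG, bound by TEAD factors, stood in 13 of 32 windows (40.6%) and in 14.7% of all windows. The list also holds YAP targets such as Ankrd1, so this share too depends on the choice of genes, and it was not tested. Acta1 and Vcl held both motifs, and their letters do not overlap between the 2 patterns. Among the 8 genes with an exact CArG box, the log2 change in KO/Kd ran from -2.92 for Acta1 to 0.90 for Actc1.

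The comparison with +/+ cells that also received tamoxifen addresses what differs when both sides had the drug. In KO 11 of the 33 were higher and 2 lower than in these cells, where 12.8% of all genes were higher and 11.3% lower. In KO/Kd 18 were higher and 6 lower, where 38.2% were higher and 23.5% lower. After quantile normalization or centring the KO/Kd counts were 14 and 8 or 15 and 8. Of all genes, 31.9% or 32.3% were then higher and 32.7% or 31.8% lower. The KO counts became 15 and 2 or 14 and 2, where 16.1% or 14.4% of all genes were higher and 16.3% or 16.2% lower. Actg2 was higher by 1.51 (adjusted p = 1.06e-09) in KO and 1.79 (adjusted p = 1.58e-11) in KO/Kd, Fhl1 by 0.88 (adjusted p = 1.05e-08) and 1.06 (adjusted p = 1.34e-10), and Lmod1 by 0.68 (adjusted p = 9.65e-05) and 1.26 (adjusted p = 1.28e-08). Synpo2 was 2.23 higher in KO/Kd (adjusted p = 1.37e-08), and Acta1 was 1.44 higher in KO (adjusted p = 5.47e-06) and lower in KO/Kd, at -2.12 (adjusted p = 7.72e-09). Ankrd1, which was higher in +/+ cells than in control, had 0.16 (adjusted p = 0.351) in KO and 0.13 (adjusted p = 0.343) in KO/Kd, and the latter passed without KO/Kd replicate 2 (0.30, adjusted p = 0.00535). Smtn was lower than in +/+ cells in KO (-0.61, adjusted p = 4.82e-05) and in KO/Kd (-0.87, adjusted p = 1.33e-07). The count of 11 in KO was 13 with the mean of probe sets or without _x_at and _s_at probe sets, where 12.4% of all genes were higher. The same count dropped to 7 without KO replicate 3. It was also 7 without replicate 3 of the +/+ cells and with arrayWeights, where 9.58% and 6.81% of all genes were higher. The 2 called lower, Smtn and Pdlim7 (-0.25, adjusted p = 0.0241), became 1 without KO replicate 1 or without replicate 1 or 2 of the +/+ cells.

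The +/+ cells themselves had 9 of the 33 higher and 4 lower than control, where 21.5% of all genes were higher and 6.93% lower. After rescaling these counts were 6 and 7 or 8 and 7, where 14.5% or 17.5% of all genes were higher and 15% or 11.4% lower. The genes named next are those called without rescaling. Acta1 (-0.80, adjusted p = 0.0015), Actg2, Fhl1 and Zyx (-0.21, adjusted p = 0.0263) were lower, and Ankrd1, Smtn, Pdlim7 (0.41, adjusted p = 0.000759), Fhl2 (0.32, adjusted p = 0.005), Srf on its brighter probe set (0.30, adjusted p = 0.0481), Actn1 (0.28, adjusted p = 0.0032), Tagln (0.24, adjusted p = 0.00515), Ccn1 (0.20, adjusted p = 0.0267) and Cnn2 (0.20, adjusted p = 0.0167) were higher. Genotype, possible virus and drug cannot be told apart in this comparison, and the call of Srf held under 7 of 23 alternatives (0.19 to 0.31 without each of the 10 arrays whose omission ended it). Those of the other 3 weak genes ended as follows: Cnn2 without control replicate 3 or replicate 1 or 2 of the +/+ cells (0.17 to 0.20), Zyx when any 1 control array or replicate 1 or 3 of the +/+ cells was left out (-0.21 to -0.18), and Ccn1 when any 1 array of either group was left out (0.19 to 0.21).

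Among cells with the Hdac2 micro-RNA, those with tamoxifen (KO/Kd) had 23 of the 33 higher and 4 lower than those in ethanol (Kd), where 42.9% of all genes were higher and 20.4% lower. After rescaling 15 were higher and 9 lower or 16 and 9, where 31.3% or 32.3% of all genes were higher and 32.6% or 31.4% lower. Deletion and drug cannot be told apart here either. Synpo2 had a log2 change of 1.92 (adjusted p = 7.72e-08), Myh11 of 0.95 (adjusted p = 3.47e-07), Mylk of 0.85 (adjusted p = 5.18e-06), Zyx of -0.68 (adjusted p = 1.25e-07) and Acta1 of -2.43 (adjusted p = 1.42e-09). Among tamoxifen-treated fl/fl cells, KO/Kd against KO gave 16 higher and 6 lower, where 36.1% were higher and 20.6% lower. After rescaling it gave 11 and 10 or 13 and 9, where 30.1% or 31.4% of all genes were higher and 31.2% or 29.2% lower. Acta1 changed by -3.56 (adjusted p = 2.15e-11) in that comparison, and Synpo2 by 1.70 (adjusted p = 4.06e-07).

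The interaction, the change with tamoxifen in cells with the Hdac2 micro-RNA (KO/Kd minus Kd) less that in cells with the scrambled one (KO minus control), passed for 4 genes above 0 and 7 below 0 of the 33, where 25.7% and 17.1% of all genes passed. After either rescaling 4 and 13 passed, where 24.1% or 23.6% of all genes were above 0 and 25.8% or 24.8% below. The genes named next are those called without rescaling. Above 0 were Synpo2 (1.37, SE 0.25, adjusted p = 0.000317), Myh11 (0.81, adjusted p = 0.000198), Mylk (0.79, adjusted p = 0.000755) and Actc1 (0.71, adjusted p = 1.86e-05), whose change with tamoxifen was more positive in cells with the Hdac2 micro-RNA. Below 0 was Acta1 (-3.08, SE 0.23, adjusted p = 2.82e-08), which was higher in KO than in control and lower in KO/Kd than in Kd. Zyx (-0.60, adjusted p = 6.39e-05), Ccn2 (-0.59, adjusted p = 0.000408), Tagln2 (-0.53, adjusted p = 0.00258), Ankrd1 (-0.50, adjusted p = 0.0182), Fhl1 (-0.27, adjusted p = 0.0126) and Actn4 (-0.27, adjusted p = 0.0197) were also below 0. Ankrd1 was lost without control replicate 1 (-0.42, adjusted p = 0.0527) and with arrayWeights (-0.40, adjusted p = 0.0728), and Actn4 without Kd replicate 1 (-0.25, adjusted p = 0.0502). For Cnn1 (0.959), Lmod1 (0.313) and Actg2 (0.232) the adjusted p of the interaction missed the threshold, which does not show that the effects simply added.

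**Figure D4:**
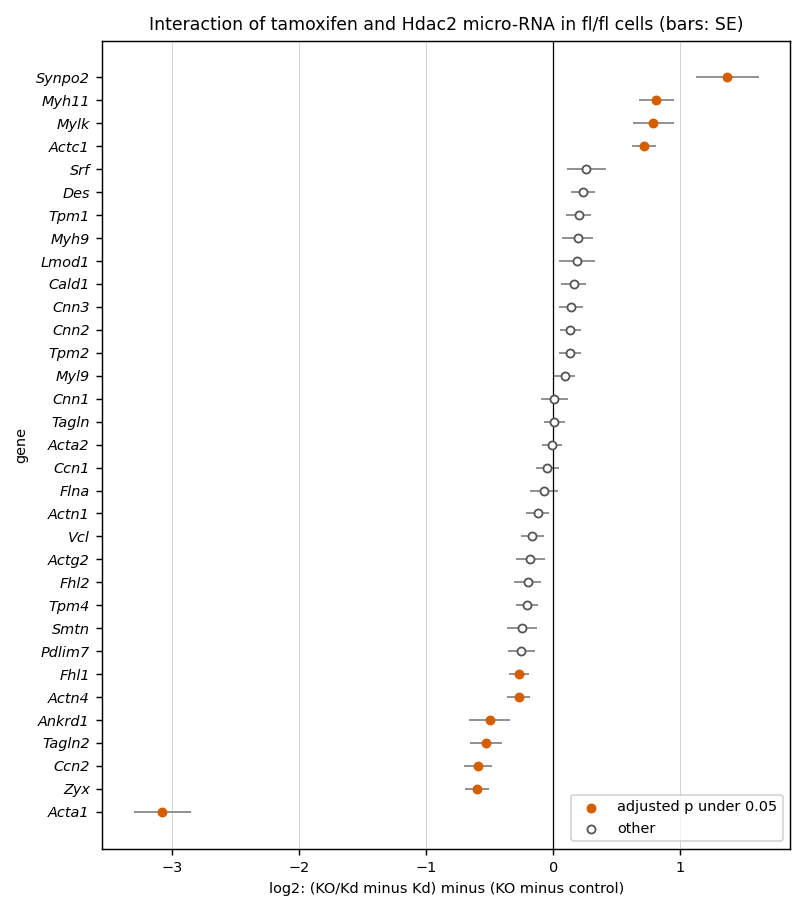
Interaction term of the 33 genes on the log2 scale (KO/Kd minus Kd, less KO minus control), sorted, with bars for 1 standard error and filled points for a limma adjusted p under 0.05. Acta1 lies at -3.08 and Synpo2 at 1.37.

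Of the 33 genes, 17 had more than 1 probe set above the filter, 70 probe sets in all, some of which disagreed. In KO/Kd against control, all 4 probe sets of Synpo2 were between 1.35 and 2.26, the 6 of Cnn3 between 0.36 and 0.58, and the 2 of Ankrd1 at 0.81 and 0.85. Both probe sets of Tagln2 (-0.64 and -0.52) and of Zyx (-0.62 and -0.34) were below 0. Acta2 had 0.28 on its bright probe set, and 1.84 and 0.76 on 2 dim ones, the former from 253 ± 108 (SD, n = 3) to 914 ± 248. Actn1 had 0.21 on the probe set used and -0.06 and -0.37 on the others, Srf had 0.59 and -0.41, and Mylk had 1.13 and 0.36. Which transcripts the discordant probe sets read was not tested.

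**Figure D5:**
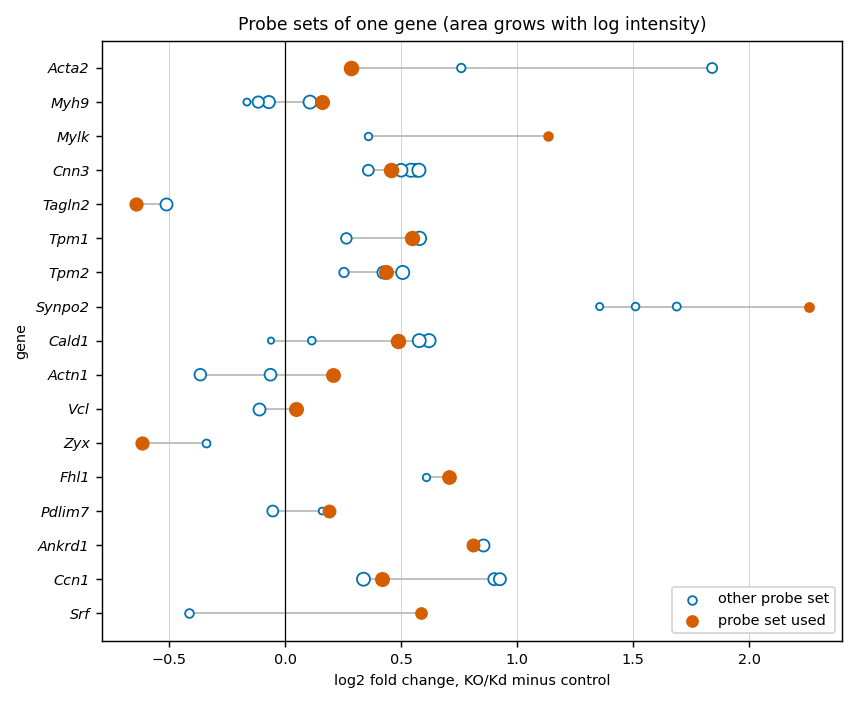
Log2 fold change of KO/Kd against control for each probe set of the genes with more than 1 above the filter; filled points are the probe sets used, open points the others, and the area of a point grows with the logarithm of its mean intensity. The points of Synpo2 all lie right of 1, while those of Srf and Actn1 lie on both sides of 0.

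Genes that act upstream of or beside the contractile genes were read from lists that named them by pathway. Of all genes, 46.2% rose and 19.3% fell in KO/Kd, 19.5% and 4.64% in KO, and 7.5% and 3.02% in Kd. Of 10 SRF cofactors and partners, 5 rose and 2 fell in KO/Kd, near the share of all genes, 2 rose and 1 fell in KO, and 1 rose in Kd. Gata6, a zinc-finger factor, rose by 2.12 in KO/Kd and 1.18 in Kd and fell by 0.48 in KO, and Scai, a repressor of MRTF, rose by 1.84 in KO/Kd and 0.49 in KO. Prkd1, a protein kinase, rose by 0.88 and Elk4, a ternary complex factor, fell by 0.52 in KO/Kd. Mrtfa, the actin-sensing cofactor, fell by 0.44 in KO/Kd and is named here after its values were seen. Myocd, the smooth muscle cofactor myocardin, had means between 18.3 and 22.3 in the 5 groups. Of 16 further MRTF and SRF targets, 7 rose and 2 fell in KO/Kd, 7 rose and 1 fell in KO, and 2 rose and 1 fell in Kd. In KO/Kd, Filip1l (0.62), Lpp (0.53), a LIM protein of adhesions related to zyxin, and Lima1 (0.42), which bundles actin, rose, and Itga5 (-0.72), the fibronectin receptor's alpha chain, fell. In +/+ cells against control, 2 SRF cofactors rose and 0 fell, and 5 further targets rose and 2 fell, where 21.5% and 6.93% of all genes did. In KO against +/+ cells, 0 cofactors were higher and 4 lower, and 5 further targets higher and 1 lower, where 12.8% and 11.3% of all genes were. In KO/Kd these counts were 3 and 3, and 5 and 6, where 38.2% and 23.5% of all genes were higher and lower.

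Of 10 immediate early genes of the ternary complex branch, 8 rose and 0 fell in KO/Kd, and 7 rose and 0 fell in both KO and Kd. Fos (1.65), Egr2 (1.59) and Junb (1.32) led in KO/Kd, while Nr4a1 (1.15) and Dusp1 (1.10) led in KO. Of 14 genes of the YAP and TEAD pathway, 9 rose and 1 fell in KO/Kd, 6 rose in KO and 1 rose in Kd. Wwtr1, the YAP paralog TAZ, and Lats2, a kinase that restrains YAP, both rose by 1.07 in KO/Kd, Crim1 rose by 0.93, and Tead4 fell by 0.99. Of 13 genes of TGF-beta signalling, a known inducer of contractile genes in fibroblasts, 10 rose and 1 fell in KO/Kd, 6 rose in KO, and 1 rose and 2 fell in Kd. Ltbp2 (1.75), Tgfb2 (1.52), Tgfbr2 (1.02) and Smad3 (1.00) rose in KO/Kd. In +/+ cells against control, 6 immediate early genes rose and 1 fell, 7 YAP and TEAD genes rose and 0 fell, and 7 TGF-beta genes rose and 1 fell. In KO against +/+ cells, 4 immediate early genes were higher and 3 lower, 3 YAP and TEAD genes higher and 0 lower, and 4 TGF-beta genes higher and 2 lower. In KO/Kd against +/+ cells these counts were 6 and 3, 6 and 3, and 8 and 1. Of all genes, 21.5% rose and 6.93% fell in +/+ cells against control. Against +/+ cells, 12.8% were higher and 11.3% lower in KO, and 38.2% higher and 23.5% lower in KO/Kd. The shares for KO, Kd and KO/Kd against control are given in the paragraph before.

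Marker sums of other cell types differed between the groups. The sums were of intensities that were not rescaled, and array medians were highest in KO/Kd (29.1 to 30.7). Among all genes 46.2% rose and 19.3% fell in KO/Kd, beside the counts of called markers below. The summed intensity of 7 smooth muscle markers outside the 33 genes ran from 3874 to 4319 in control, 4551 to 5296 in KO, 4872 to 5128 in Kd, 8270 to 9138 in KO/Kd and 5584 to 6061 in +/+ cells. Of the 6 that were tested, 4 rose and 1 fell in KO/Kd: Itga8 (3.05), Ppp1r14a (2.53), Npnt (1.42) and Kcnmb1 (0.72) rose and Hspb6 (-1.05) fell, while Pln passed the 40th percentile on 1 array and was not tested. The summed intensity of 6 pericyte markers ran from 2255 to 2645 in control, 3116 to 3654 in KO, 3018 to 3266 in Kd, 6765 to 7383 in KO/Kd and 3105 to 3396 in +/+ cells, and in KO/Kd Notch3 (5.57), Mcam (2.85) and Rgs5 (2.60) rose and Cspg4 (-0.55) fell. The pericyte channel genes Kcnj8 and Abcc9 stayed below the 40th percentile on all 15 arrays. Of 8 fibroblast markers 5 rose and 1 fell in KO/Kd, and 2 rose and 3 fell in KO, where 19.5% of all genes rose and 4.64% fell. Sums of the 8 were 161308 to 168009 in control, 155358 to 179273 in KO, 172588 to 177584 in Kd, 192986 to 204285 in KO/Kd and 171641 to 181087 in +/+ cells. Of 9 skeletal muscle markers only 3 passed the filter on dim probe sets, and 2 of these were called higher in KO/Kd. The sums of the 9 were 128 to 134 in control, 132 to 135 in Kd and 172 to 186 in KO/Kd, and lay between those of control and KO/Kd in KO and +/+ cells. Those of 8 cardiac markers were 144 to 160 in control, 173 to 242 in KO, 154 to 158 in Kd, 236 to 267 in KO/Kd and 156 to 164 in +/+ cells, so that KO overlapped KO/Kd. Of 4 cardiac markers tested 1 was called in KO/Kd, Tnnt2, cardiac troponin T, higher by 1.37, and it was also higher in KO (1.08). Sums of 7 macrophage markers were 382 to 408 in control, 428 to 640 in KO, 377 to 427 in Kd, 374 to 554 in KO/Kd and 328 to 447 in +/+ cells. Those of 6 endothelial markers were 81.4 to 88.9 in control, 84.8 to 88.6 in KO, 76.2 to 82.6 in Kd, 137 to 175 in KO/Kd and 82.0 to 97.4 in +/+ cells. Only 1 of these 6 passed the filter, and it was higher by 1.53 in KO/Kd. Sums of 6 epithelial markers were 404 to 520 in control, 711 to 892 in KO, 572 to 700 in Kd, 306 to 370 in KO/Kd and 600 to 775 in +/+ cells. The part of these markers in the changes of the contractile genes was not tested, and in these bulk samples more cells of a type and more RNA per cell cannot be told apart.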

How the data were processed

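The deposited table held linear intensities of 45037 probe sets on 15 Affymetrix arrays. The authors' summarisation, background correction and scaling of these intensities are not given in the sources used here. A platform annotation gave exactly 1 symbol to 34945 probe sets, several to 932 and none to 9160, and only the first were used; 34741 had an Entrez ID found in RefSeq, which changed 0 symbols. Values were taken as log2(intensity + 16), so fold changes of dim genes are understated. Probe sets that exceeded the 40th percentile of an array on 3 or more of them were kept, and each gene was represented by its brightest one on average. limma 3.58.1 in R 4.3.3 (lmFit, contrasts.fit, eBayes) was fitted to all 15 arrays with 1 mean per group, with Benjamini-Hochberg adjustment over 13382 genes in each of 9 comparisons and a threshold of 0.05; the procedure was tested on simulated data. The median standard error was 0.0867, or 0.123 for the interaction, and 3 arrays per group limit the precision. The labels do not say whether replicates are separate cultures. The p-values therefore reflect only the variation among these samples, possibly technical.

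Every one of the 33 genes was named, and of the pathway lists up to 4 called genes per list and comparison with the largest change. The members and lists were chosen with earlier results of these data known. Motifs were searched on both strands in windows from RefSeq (GRCm38.p6). The 23 alternatives were quantile normalization, centring on array medians, no filter, a pseudocount of 1, the replicate number as a block, averaging the probe sets of a gene, omission of probe sets ending in _x_at or _s_at, arrayWeights, and omission of each of 15 arrays. Some listed genes, and 1 of the pathway lists, are not reported here.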

Additional observations from a re-analysis of the deposited data

Results flagged for a closer look

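For 11 genes the change with tamoxifen, which deletes Hdac1, differed between cells with the Hdac2 micro-RNA and cells with the scrambled one by the interaction term of the fit (limma, adjusted p under 0.05). Of the 33 genes 4 passed above 0 and 7 below 0, where 25.7% and 17.1% of all genes did. Passing was therefore common among all genes tested. The differences were -3.08 for Acta1, 0.71 for Actc1, 0.81 for Myh11, 0.79 for Mylk, -0.53 for Tagln2, 1.37 for Synpo2, -0.27 for Actn4, -0.60 for Zyx, -0.27 for Fhl1, -0.50 for Ankrd1 and -0.59 for Ccn2, on the log2 scale. For Acta1, all 3 KO arrays were above all control arrays and all 3 KO/Kd arrays below all Kd arrays. No group was tested for a stray array, since each holds 3.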

How the results depend on the processing

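Of the calls in the 9 comparisons, those that held under all 23 alternatives were 11 of 18 for KO against control, 3 of 8 for Kd, 21 of 28 for KO/Kd, 8 of 13 for +/+ cells, 8 of 13 for KO and 19 of 24 for KO/Kd against +/+ cells, 19 of 27 for KO/Kd against Kd, 13 of 22 for KO/Kd against KO and 9 of 11 for the interaction. With quantile normalization or median centring, genes called lower numbered 1 and 1 for KO, 2 and 1 for Kd, 8 and 8 for KO/Kd and 7 and 7 for +/+ cells against control, 9 and 9 for KO/Kd against Kd, and 13 and 13 for the interaction; with quantile normalization alone KO/Kd had 15 higher than Kd and 10 lower than KO. The shares of all genes under these rescalings are given with the counts in the Results. With arrayWeights 11 rose in KO, 2 fell in Kd, and KO had 7 higher and 1 lower than +/+ cells. Of all genes, 8.02% rose in KO, 6.64% fell in Kd, and 6.81% were higher and 5.16% lower in KO than in +/+ cells. The replicate numbers did not pair the samples: the deviations of 30 same-numbered pairs correlated between -0.159 and 0.135, 4 of them above 0.1, and 3 of 15 arrays correlated best with their own number. With the replicate number as a block, 1 gene fell in Kd, where 2.84% of all genes fell. In KO, Kd and KO/Kd 17, 7 and 23 rose, where 18.2%, 6.86% and 45.4% of all genes rose. Leaving out each array in turn gave 14 to 23 higher and 0 to 0 lower for KO, 3 to 8 and 0 to 1 for Kd, 23 to 24 and 4 to 4 for KO/Kd, 6 to 11 and 3 to 4 for +/+ cells, 7 to 14 and 1 to 3 for KO against +/+ cells, 16 to 19 and 5 to 6 for KO/Kd against +/+ cells, 19 to 23 and 4 to 4 for KO/Kd against Kd, 13 to 16 and 5 to 7 for KO/Kd against KO, and 4 to 5 and 6 to 9 for the interaction. The share of all genes moved with these omissions. In KO, 14 of the 33 rose without control replicate 3, where 13.9% of all genes rose. Without KO replicate 1, 23 rose, where 27.2% of all genes rose. For calls that held under all 23 alternatives no share of all genes is given, so those counts describe only the 33 genes. Of single genes' results, 14 turned their sign while called in one of the settings, in 22 pairs of result and setting. In KO/Kd against control these were Actn1 (-0.0095 with quantile normalization, -0.075 with the mean of probe sets), Vcl (-0.16 and -0.13 with quantile normalization and centring), Flna (-0.21 and -0.17), Pdlim7 (-0.0446 with quantile normalization) and Srf (-0.41 without _x_at and _s_at probe sets). Against +/+ cells Srf gave -0.27 with the mean of probe sets and -0.83 without those probe sets. Against Kd, Acta2 gave -0.0078 with quantile normalization, Actn1 -0.0189, -0.001 and -0.10 with quantile normalization, centring and the mean, Vcl -0.18 and -0.16, and Srf -0.17 and -0.66. Against KO, Tpm2 gave -0.0024 and Fhl1 -0.0637 with the mean of probe sets and Srf -0.38 without _s_at, and Srf's interaction was -0.62. Rescaling assumes that arrays share a distribution or a median; the other causes were not tested. Genes near the 40th percentile, Actc1, Myh11 and Des, are limited by signal over background.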
